A study of Mus musculus with 6 samples.

Results

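The 10 genes described here are Atf4, the targets Ddit3, Trib3, Chac1 and Asns of the transcription factor it encodes, the serine synthesis genes Phgdh, Psat1 and Psph, and the mitochondrial one-carbon genes Shmt2 and Mthfd2. They were chosen by name, with earlier results of these data known, from a table of 37753 entries with expression values. Of those entries, 12461 were expressed well enough to be tested. Each of the 10 symbols had 1 entry, and each of the 10 passed the filter. RNA-seq libraries came from 3 cultures of primary mammary epithelial cells (MEC, each 1 preparation) and from 3 cell lines grown out of breast tumors (MEKO lines 199, 233 and 336), with 1 library each. The MEC carry the genotype WAPCre+ and the MEKO lines the genotype Mapk8KO Mapk9KO Cre+, both on C57/Bl6J, so that the Cre transgene was carried by both groups. Its expression was not measured here. Cre was driven by the promoter of whey acidic protein, which is active in luminal cells and is induced by lactation. Mapk8 and Mapk9 encode the protein kinases JNK1 and JNK2. Each MEC preparation pooled cells of 3 to 5 females, which were virgin and 10 to 12 weeks old, and was grown on collagen I with serum, epidermal growth factor and insulin. The tumors arose in parous mice, and the cells were moved after 2 passages on collagen I to uncoated dishes and a growth medium for which serum is the only such supplement named. Each MEKO line is 1 line of 1 tumor. The study examined tumor cells of this genotype from adenocarcinoma, from adenosquamous carcinoma and from tumors with traits of both. Its text does not match these types to the line numbers, so tumor type may also differ between the lines. The mice with tumors were older than the MEC donors, with no age given for each line. Genotype, tumor origin, parity, age of the mice, medium and time in culture therefore changed together between the groups and cannot be told apart.

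ATF4 is the effector of the integrated stress response. Kinases that sense lack of amino acids, misfolded protein in the endoplasmic reticulum, viral RNA or lack of heme phosphorylate the initiation factor eIF2alpha, which slows translation in general and favors translation of the Atf4 mRNA. ATF4 then pairs with C/EBP proteins on composite DNA elements and induces genes for amino acid uptake and synthesis, among them the enzymes that make serine from a glycolytic intermediate and those that pass its carbon to folate in mitochondria. Since ATF4 is controlled largely at translation, the level of its mRNA is not a measure of its protein, and protein was not measured here.

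The promoters of the 10 genes were read from RefSeq (GRCm38.p6), in windows from 250 bases before to 50 bases after the annotated start. All 10 matched, with 11 windows, since Psat1 has 2. The letters TGATGNAA, the core of the composite C/EBP-ATF element, were searched on both strands and were found in 3 of 10 genes, beside 4.51% of the 27025 genes in the same table. The genes were Asns, Chac1 and Trib3. The windows of the other 7 genes do not hold these letters, which says nothing about elements elsewhere. The letters TGANTCA, bound by AP1 and read the same way on both strands, were found in 1 of the 10, Ddit3, beside 8.97% of all genes, and shared no base with the other motif. The sequences below are printed 5′ to 3′ on the strand of the gene with the match in capitals, to show where the element lies in 3 targets of ATF4, and with Phgdh, the gene of the 10 that was called. For Asns, Chac1 and Phgdh the 250 bases before the start are given, and for Trib3, whose match lies 14 bases past the start, the 30 bases around it.
Asns, chr6:7693210-7693459, minus strand: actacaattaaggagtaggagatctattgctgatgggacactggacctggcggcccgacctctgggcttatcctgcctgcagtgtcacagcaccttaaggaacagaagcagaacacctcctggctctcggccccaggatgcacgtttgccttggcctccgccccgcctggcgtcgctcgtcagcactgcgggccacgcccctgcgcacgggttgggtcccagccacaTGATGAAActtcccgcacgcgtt
Chac1, chr2:119350992-119351241, plus strand: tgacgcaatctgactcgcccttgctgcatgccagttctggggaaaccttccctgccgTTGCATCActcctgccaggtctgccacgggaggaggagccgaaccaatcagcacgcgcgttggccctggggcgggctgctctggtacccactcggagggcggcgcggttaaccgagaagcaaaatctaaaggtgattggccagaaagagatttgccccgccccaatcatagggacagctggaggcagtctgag
Trib3, chr2:152344028-152344057, minus strand: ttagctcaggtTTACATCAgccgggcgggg
Phgdh, chr3:98339970-98340219, minus strand: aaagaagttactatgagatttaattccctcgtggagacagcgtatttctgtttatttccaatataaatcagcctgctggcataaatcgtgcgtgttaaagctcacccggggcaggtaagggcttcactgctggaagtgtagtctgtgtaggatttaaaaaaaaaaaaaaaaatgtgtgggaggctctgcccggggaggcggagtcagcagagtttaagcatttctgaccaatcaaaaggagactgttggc
In Chac1 and Trib3 the letters stand on the opposite strand to the gene, and in Asns on the same strand, with the first base 23 bases before the start. These distances are counted from the RefSeq start. By the GENCODE M21 positions given below, the match in Asns lies inside the gene and that in Trib3 lies before it.

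Expression is given as FPKM (fragments mapped to a transcript, scaled by its length and by the size of the library), so levels of different genes can be set side by side. The deposited values give no read numbers. Relative depth, read from small values, was between 0.92 and 1.30 times that of MEC 1. Fold changes are on the log2(FPKM + 1) scale with limma, MEKO minus MEC, with p-values adjusted over all 12461 tested entries. A gene was called with an adjusted p under 0.05 and a log2 fold change beyond 0.75. The deleted genes were lower in each line, with Mapk8 at 23.1, 25.1 and 19.2 FPKM in MEC 1, 2 and 3 and at 5.93, 3.12 and 1.37 FPKM in lines 199, 233 and 336. Mapk9 was at 24.4, 21.5 and 22.1 FPKM in MEC and at 7.62, 3.15 and 3.07 FPKM in the lines. The libraries differed in cell type markers, and fewer cells of a type and less RNA per cell cannot be told apart in them. All 7 luminal markers were detected at 1 FPKM or more in each library, with a summed level of 6283 to 9981 FPKM in MEC and 1219 to 2550 FPKM in the lines. The 7 fibroblast markers summed to 98.8 to 190.5 FPKM in MEC, 1100 FPKM in line 199, 2.40 FPKM in line 233 and 4.22 FPKM in line 336. The 8 basal markers summed to 1522 to 2790 FPKM in MEC and to 2260 FPKM in line 199, against 10.8 and 58.6 FPKM in lines 233 and 336. The sum in line 199 came nearly all from Krt5, Krt14, Krt17 and Acta2, while Myh11 (0.0812 FPKM, against 22.4 to 41.8 FPKM in MEC), Mylk (0.714 against 7.96 to 12.0 FPKM) and Oxtr (0.0125 against 5.05 to 25.9 FPKM) were low there and were called lower in MEKO (limma). The 6 leukocyte markers summed to 21.9 to 42.1 FPKM in MEC and 0.946 to 24.9 FPKM in the lines. The sum of 24.9 FPKM, in line 336, came nearly all from Cd68 (23.5 FPKM, against 3.46 to 6.59 FPKM in MEC). There Lyz2 was at 0.0182 FPKM, against 16.5 to 32.9 FPKM in MEC, Csf1r was at 1.41 FPKM, and Ptprc, Emr1 and Cd3e were listed at 0. The 3 endothelial markers summed to 1.47 to 12.8 FPKM in MEC and 0.159 to 0.430 FPKM in the lines. The 3 adipocyte markers summed to 1.28 to 11.7 FPKM in MEC and 0.0898 to 1.17 FPKM in the lines, with Plin1 listed at 0 in all 6 libraries.

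Of the 10 genes, Phgdh alone was called, and it was higher in MEKO. The share was 1 of 10 called higher beside 2.64% of all tested entries and 0 of 10 called lower beside 7.26% (limma), and at an unadjusted p under 0.05 the counts were the same, 1 higher and 0 lower, beside 28.2% of all entries in either direction. By the libraries themselves, 1 of 10 had all 3 lines above all 3 MEC libraries beside 18.5% of entries, and 0 of 10 had all 3 lines below beside 18.7%. The median log2 fold change of the 10 genes was 0.38 and that of all entries 0.01. Line 336 was the lowest of the lines for 10 of 10 genes beside 31.5% of all entries, and line 199 was the highest for 8 of 10 beside 39.6%. The plot of FPKM by library shows this as a drop within the MEKO points of each gene.

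**Figure D1:**
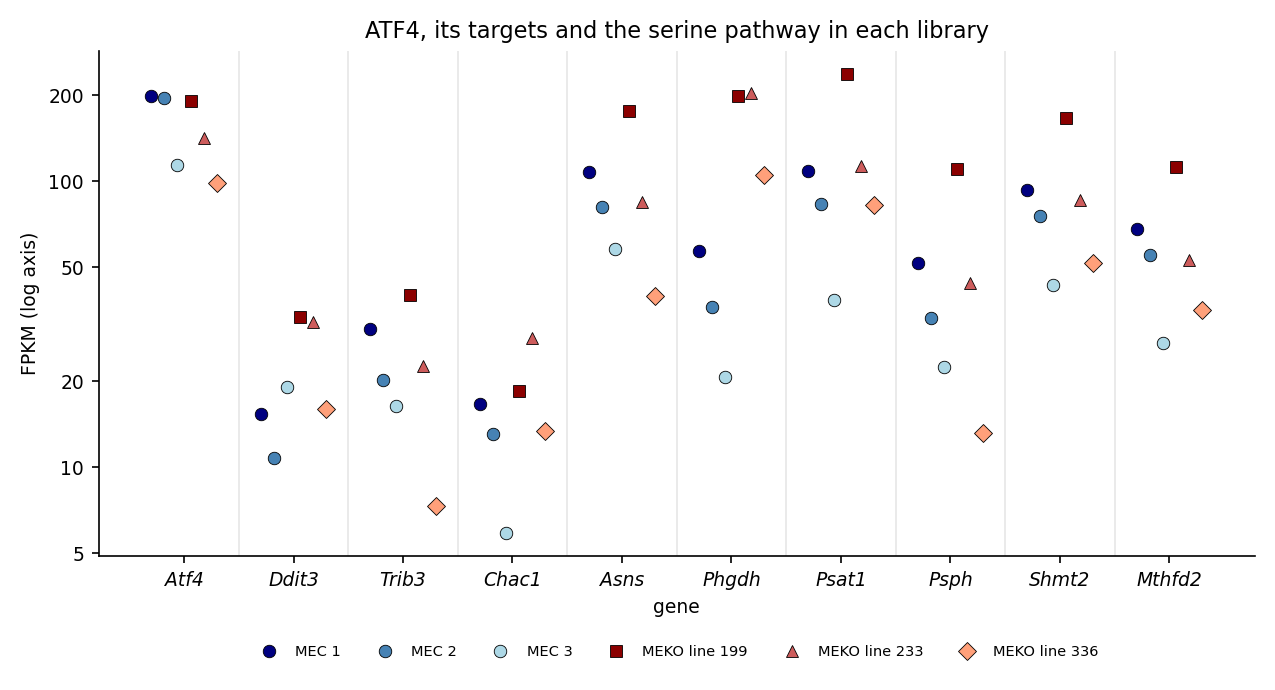
FPKM of the 10 genes (log axis) in each of the 6 libraries, with circles for MEC 1, 2 and 3 and a square, a triangle and a diamond for MEKO lines 199, 233 and 336. Phgdh is the gene whose MEKO points (106 to 203 FPKM) all lie above its MEC points (20.7 to 57.2 FPKM), and line 336 is the lowest MEKO point for each gene.

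Atf4 (chr15:80255184-80257541, plus strand, GRCm38, GENCODE M21) had an FPKM of 199, 196 and 114 in MEC 1, 2 and 3 and of 190.3, 141 and 98.3 in lines 199, 233 and 336. The groups overlapped, with line 199 beside MEC 1 and 2 and line 336 below MEC 3. The mean was 169.8 ± 48.3 FPKM in MEC and 143 ± 46.0 FPKM in MEKO (SD, n = 3 each). The log2 fold change was -0.25 (SE 0.32, 95% confidence interval -1.02 to 0.52, adjusted p = 0.644, limma). No difference in the Atf4 mRNA was detectable with 3 libraries a group.

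Ddit3 (chr10:127290774-127296288, plus strand) encodes CHOP, a C/EBP family factor that ATF4 induces in prolonged stress. Its FPKM was 15.4, 10.7 and 19.1 in MEC and 33.6, 32.2 and 16.0 in lines 199, 233 and 336. Lines 199 and 233 lay above each MEC library and line 336 within their range. The means were 15.1 ± 4.21 and 27.2 ± 9.77 FPKM (SD, n = 3 each), with a log2 fold change of 0.78 (SE 0.34, 95% confidence interval -0.05 to 1.60) and an adjusted p of 0.199 (limma). The annotation lists 2 genes under this symbol. Mars on the opposite strand shares 3.97% of all annotated exon bases and aligned to 7.64% of the longest coding transcript. Reads of Mars from there cannot be told apart if strand was not used in the counting.

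Trib3 (chr2:152337422-152344032, minus strand) encodes a pseudokinase that is induced by ATF4 and CHOP and restrains them. It was expressed at 30.5, 20.1 and 16.4 FPKM in MEC and at 40.1, 22.6 and 7.31 FPKM in lines 199, 233 and 336. Line 199 was above and line 336 below each MEC library, so that the group means of 22.4 ± 7.30 and 23.3 ± 16.4 FPKM were nearly equal while the lines covered a 5.48-fold range. The log2 fold change was -0.17 (SE 0.58, 95% confidence interval -1.58 to 1.23, adjusted p = 0.871, limma). Its sign depended on single libraries, with 0.06 without MEC 1 and 0.46 without line 336.

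Chac1 (chr2:119351229-119354381, plus strand) encodes an enzyme that degrades glutathione and is a sensitive target of ATF4. The values were 16.7, 13.1 and 5.88 FPKM in MEC and 18.4, 28.2 and 13.4 FPKM in lines 199, 233 and 336. Here line 233 and not line 199 was the highest, and line 336 lay within the MEC range. The means were 11.9 ± 5.49 FPKM in MEC and 20.0 ± 7.53 FPKM in MEKO, with a log2 fold change of 0.75 (SE 0.42, 95% confidence interval -0.26 to 1.76) and an adjusted p of 0.290 (limma).

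Asns (chr6:7675169-7693254, minus strand) encodes asparagine synthetase, which makes asparagine from aspartate and glutamine. It was at 108, 81.4 and 58.1 FPKM in MEC and at 176, 84.8 and 39.8 FPKM in lines 199, 233 and 336. As for Trib3, line 199 exceeded and line 336 fell short of each MEC library, and line 233 lay among them. Means of 82.5 ± 25.0 FPKM in MEC and 100.1 ± 69.2 FPKM in MEKO gave a log2 fold change of 0.07 (SE 0.54, 95% confidence interval -1.22 to 1.36, adjusted p = 0.946, limma). It turned to -0.45 without line 199 and to -0.15 without MEC 3.

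Phgdh (chr3:98313170-98339990, minus strand) encodes phosphoglycerate dehydrogenase, the first enzyme of serine synthesis. Its FPKM was 57.2, 36.3 and 20.7 in MEC and 198, 203 and 106 in lines 199, 233 and 336. Each line exceeded each MEC library, and line 336, the lowest line, was still above the highest MEC library. The mean rose from 38.1 ± 18.3 FPKM to 169 ± 55.1 FPKM (SD, n = 3 each), a ratio of means of 4.44. The log2 fold change was 2.17 (SE 0.42, 95% confidence interval 1.16 to 3.19, adjusted p = 0.0273, limma). The exact two-sided permutation test over the libraries gave p = 0.1, the smallest that 3 against 3 allow. The call depended on which library was left out. It held without MEC 1, line 199 or line 336 (adjusted p of 0.0486, 0.0441 and 0.0324, limma) and was lost without the others, with an adjusted p of 0.103 without MEC 2, 0.0765 without MEC 3 and 0.0714 without line 233, at log2 fold changes of 2.2, 1.81 and 2.01.

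The Phgdh transcript has many processed copies in the mouse genome. In GENCODE M21, 17 processed pseudogenes aligned to its 1893 bases with at least 90% identity over some stretch, and 6 of them had an entry in the expression table. The closest, Gm7901, was 98.7% identical over 1597 bases. It was listed at 4.64, 3.71 and 1.92 FPKM in MEC and at 17.9, 17.6 and 8.01 FPKM in lines 199, 233 and 336, the same order of libraries as Phgdh in MEC and a like step between the groups. The other 5 entries were at or below 0.0803 FPKM. How the reads were divided between these copies is not given in the sources used here, so the Phgdh values are uncertain by the share that the copies hold.

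Psat1 (chr19:15904678-15947337, minus strand) encodes phosphoserine aminotransferase, the next enzyme. Its FPKM was 109, 83.4 and 38.6 in MEC and 238, 113 and 82.3 in lines 199, 233 and 336. Lines 199 and 233 lay above each MEC library and line 336 just below MEC 2. The means were 77.0 ± 35.6 and 145 ± 82.3 FPKM, with a log2 fold change of 0.88 (SE 0.51, 95% confidence interval -0.35 to 2.11, adjusted p = 0.308, limma).

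Psph (chr5:129765558-129787449, minus strand) encodes phosphoserine phosphatase, which completes the pathway. Its FPKM was 51.7, 33.2 and 22.4 in MEC and 110.2, 44.2 and 13.2 in lines 199, 233 and 336. Line 199 was above and line 336 below each MEC library, and Psph had the widest range of the 10 genes among the lines, 8.35-fold. Means of 35.8 ± 14.8 FPKM in MEC and 55.8 ± 49.5 FPKM in MEKO gave a log2 fold change of 0.25 (SE 0.74, 95% confidence interval -1.53 to 2.03, adjusted p = 0.851, limma), which became -0.46 without line 199 and -0.04 without MEC 3. Exons of Cct6a on the opposite strand cover 10.4% of all annotated exon bases of Psph, and a Cct6a transcript aligned to 26.1% of the longest coding Psph transcript. The Cct6a entry as a whole was at 154 to 203 FPKM in MEC and at 256 to 387 FPKM in the lines. If strand was not used in the counting, those reads cannot be told apart.

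**Figure D2:**
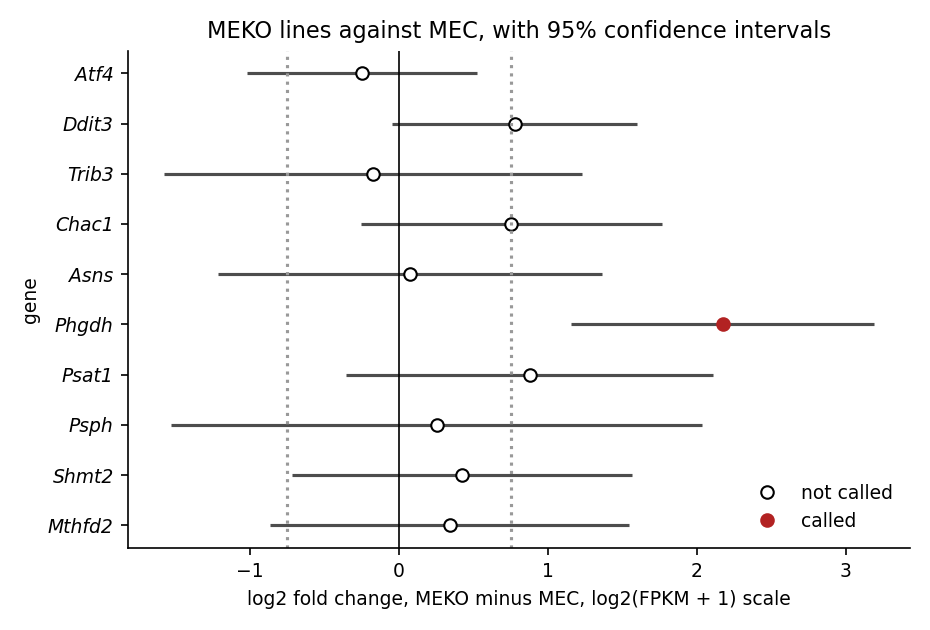
Log2 fold change of each gene, MEKO minus MEC on the log2(FPKM + 1) scale, as points with 95% confidence intervals from limma. Dotted lines mark 0.75 in either direction, a filled point marks a called gene, and the interval of Phgdh (1.16 to 3.19) is the one of the 10 that does not cross 0.

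Shmt2 (chr10:127517123-127522444, minus strand) encodes mitochondrial serine hydroxymethyltransferase, which splits serine into glycine and a folate-bound carbon unit. Its FPKM was 93.1, 75.6 and 43.2 in MEC and 166, 86.3 and 51.7 in lines 199, 233 and 336. Line 199 was above each MEC library and the other lines were among them. The means were 70.6 ± 25.3 and 101 ± 58.5 FPKM, with a log2 fold change of 0.42 (SE 0.47, 95% confidence interval -0.72 to 1.56, adjusted p = 0.588, limma), which became -0.0098 without line 199.

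Mthfd2 (chr6:83305691-83325908, minus strand) encodes the mitochondrial methylenetetrahydrofolate dehydrogenase and cyclohydrolase, which oxidizes that carbon unit. It was at 68.2, 55.4 and 27.3 FPKM in MEC and at 112, 53.1 and 35.5 FPKM in lines 199, 233 and 336. The layout was that of Shmt2, with line 199 above the MEC libraries and the other lines among them. Means of 50.3 ± 20.9 and 66.9 ± 40.0 FPKM gave a log2 fold change of 0.34 (SE 0.50, 95% confidence interval -0.87 to 1.55, adjusted p = 0.690, limma), with -0.11 without line 199 and -0.04 without MEC 3.

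The cytosolic paralogs were less abundant. Shmt1 was at 11.2, 13.0 and 6.12 FPKM in MEC and at 13.1, 15.5 and 15.7 FPKM in lines 199, 233 and 336 (log2 fold change 0.56, SE 0.28, adjusted p = 0.241, limma). Mthfd1 was at 26.4, 29.2 and 15.6 FPKM in MEC and at 38.5, 37.8 and 29.8 FPKM in the lines (0.60, SE 0.26, adjusted p = 0.197, limma). For both, each line lay above each MEC library, as for 18.5% of all entries. The margins were small, with 13.1 FPKM in line 199 against 13.0 FPKM in MEC 2 for Shmt1. For Mthfd1 they were 29.8 FPKM in line 336 against 29.2 FPKM in MEC 2. Line 199 was the lowest line for Shmt1 and the highest for Mthfd1.

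Compared within a library on the log2(FPKM + 1) scale, Shmt2 exceeded Shmt1 by 2.95, 2.45 and 2.63 in MEC 1, 2 and 3 and by 3.57, 2.40 and 1.66 in lines 199, 233 and 336. The groups overlapped, with means of 2.68 ± 0.25 in MEC and 2.54 ± 0.96 in MEKO (SD, n = 3 each, exact two-sided permutation p = 0.8). Mthfd2 exceeded Mthfd1 by 1.34, 0.90 and 0.77 in MEC and by 1.51, 0.48 and 0.24 in the lines, with means of 1.00 ± 0.30 and 0.75 ± 0.68 (exact two-sided permutation p = 0.6). In both pairs line 199 had the largest and line 336 the smallest difference of the 6 libraries.

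The lines themselves stood apart from each other. Set against the MEC mean, line 199 was above by more than 0.75 on the log2 scale for 8 of 10 genes beside 13.0% of all tested entries, and below for 0 of 10 beside 17.4%. Atf4 and Chac1, at 0.21 and 0.70, were the exceptions. Line 233 was above by that much for Chac1, Ddit3 and Phgdh, 3 of 10 beside 10.0%, and below for 0 of 10 beside 18.0%. Line 336 was above for Phgdh alone, 1 of 10 beside 11.4%, and below for Asns, Psph and Trib3, 3 of 10 beside 18.7%. The medians of the 10 differences were 1.19, 0.36 and -0.38 for lines 199, 233 and 336, where those of all entries were 0.01, 0.00 and 0.02. Each line had 1 library, so these differences have no replicate check.

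**Figure D3:**
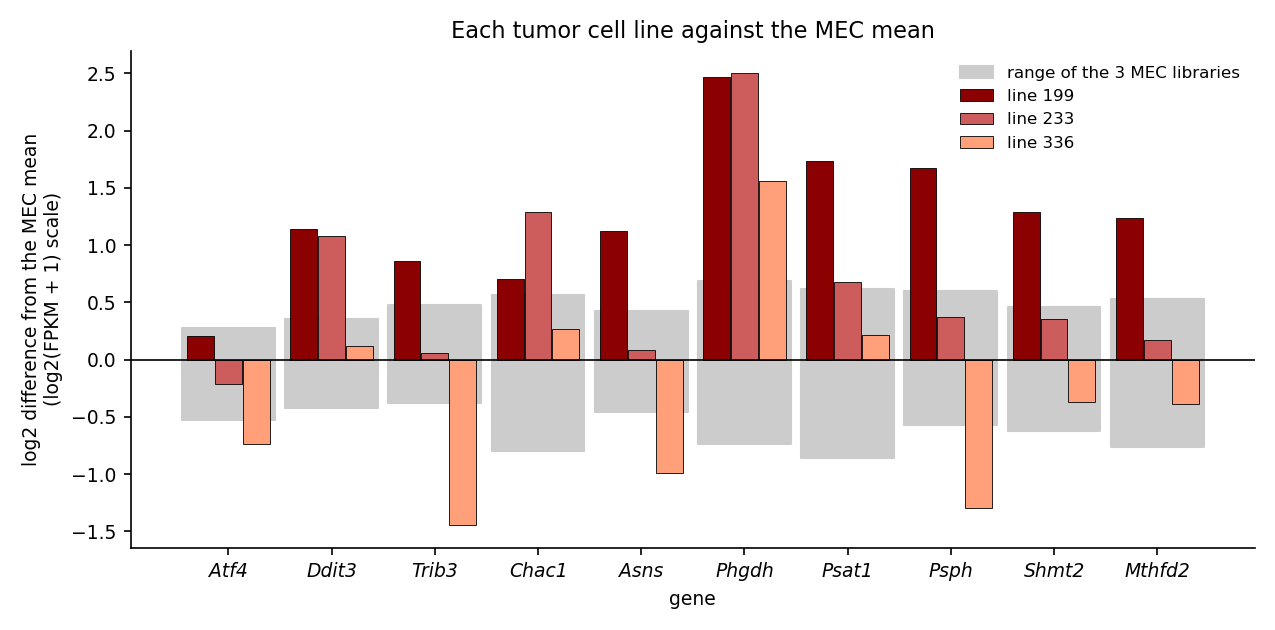
Log2 difference of each MEKO line from the MEC mean on the log2(FPKM + 1) scale, 1 bar per line, with the range of the 3 MEC libraries in grey. Line 199 stands above 0 for each gene, line 233 for each but Atf4, and line 336 below 0 for Atf4, Trib3, Asns, Psph, Shmt2 and Mthfd2.

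The order line 199 over line 233 over line 336 held for 8 of 10 genes beside 19.6% of all entries, with Phgdh and Chac1, where line 233 was the highest, as the exceptions. Line 199 exceeded line 336 by more than 1 on the log2 scale for 7 of 10 genes beside 9.77%, the others being Atf4, Phgdh and Chac1. The median difference between lines 199 and 336 was 1.57 for the 10 genes and 0.02 for all entries. The highest line over the lowest was 1.93-fold for Atf4 and Phgdh, 2.1-fold for Ddit3 and Chac1, 2.89-fold for Psat1, 3.15-fold for Mthfd2, 3.21-fold for Shmt2, 4.42-fold for Asns, 5.48-fold for Trib3 and 8.35-fold for Psph. Atf4 itself, on the mRNA level, was thus among the genes with the narrowest range.

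The MEC preparations differed in the same set of genes. MEC 3 was the lowest MEC library for 9 of 10 genes beside 39.3% of all entries, Ddit3 being the exception. MEC 1 was over MEC 2 and MEC 2 over MEC 3 for 9 of 10 beside 13.8%. The median difference between MEC 1 and MEC 3 was 1.13 on the log2 scale for the 10 genes and -0.03 for all entries. Both this order in MEC and the order of the lines given above were seen for 7 of 10 genes beside 3.53% of entries. These orders were chosen after the values were seen, and the 10 genes share their libraries, so they are not independent of each other.

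Markers of dividing cells and of other cell types moved with these differences in part. Of the 11 proliferation markers, MEC 3 was the lowest MEC library for 11, with a summed level of 269.9 FPKM against 588 and 630.0 FPKM in MEC 1 and MEC 2. Line 199 was the highest line for 10 of the 11, with 1030 FPKM against 693 and 679 FPKM in lines 233 and 336. Line 199 was also the library with 1100 FPKM of fibroblast markers, of which Col1a1 made up 599.7 FPKM. Not all fibroblast markers were high there, since Dcn was at 0.311 FPKM against 3.29 to 6.62 FPKM in MEC, and Lum at 0.0264 FPKM against 0.507 to 1.28 FPKM. The basal keratin Krt5, unlike the basal markers Myh11, Mylk and Oxtr, was high there, at 608 FPKM, and was at 1.33 and 15.3 FPKM in lines 233 and 336. The part of these differences in the levels of the 10 genes was not tested.

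By level, Atf4 was the most abundant of the 10 in each MEC library. Psat1, Asns and Shmt2 followed. Asns was above Shmt2 in each MEC library, while Psat1 came before both in MEC 1 and MEC 2 and after both in MEC 3. These differences in level were not tested. Phgdh ranked 6th in MEC 1 and MEC 2 and 7th in MEC 3. In the lines it was the most abundant in 233 and 336 and came after Psat1 in 199. Ddit3, Trib3 and Chac1 were the 3 least abundant in each MEC library, between 5.88 and 30.5 FPKM.

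Likeness of pattern was measured as the Euclidean distance over the 6 libraries between the log2(FPKM + 1) values of an entry, centred on its MEC mean, and the median of the same centred values over the 10 genes. The nearest of all 12461 entries were Shmt2 (distance 0.13) and Mthfd2 (0.29), which belong to the 10 and enter the median. They were followed by Nrarp (0.41), which encodes a regulator of Notch signaling, Chek1 (0.43), a checkpoint kinase gene, and Aldh18a1 (0.44), which encodes the first enzyme of proline synthesis. Aldh18a1 was at 36.1, 32.2 and 22.1 FPKM in MEC and at 80.4, 39.4 and 19.1 FPKM in lines 199, 233 and 336. Chek1 was at 17.9, 14.6 and 6.77 FPKM in MEC and at 23.0, 15.8 and 7.91 FPKM in the lines. Nrarp was at 15.7, 14.4 and 6.98 FPKM in MEC and at 22.6, 17.2 and 8.04 FPKM in the lines. All 3 showed the high values in MEC 1 and line 199 and the low values in MEC 3 and line 336. This follows from their choice by distance to the median, which has that pattern. Phgdh was the least like the median of the 10 genes (distance 3.17), since its lines stood higher. It was not alone in standing apart. Of all 12461 entries, Ddit3 ranked 3346th in nearness (distance 1.47), Chac1 1680th (1.26), Atf4 1484th (1.23) and Trib3 1288th (1.19). Psph ranked 637th (1.05), Psat1 294th (0.93) and Asns 41st (0.70).

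**Figure D4:**
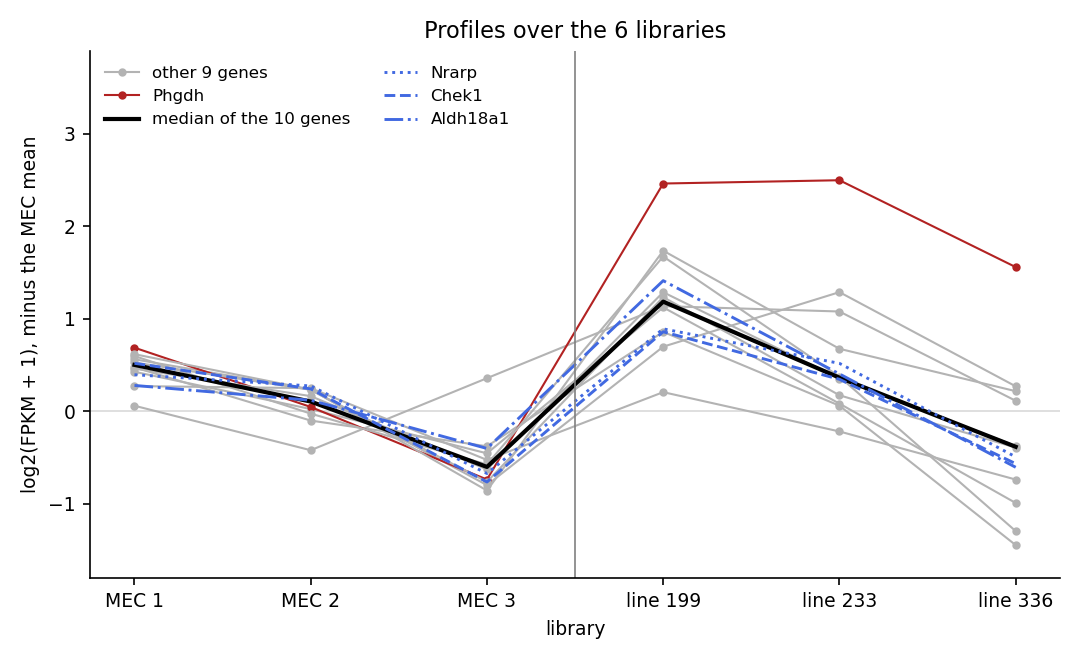
Log2(FPKM + 1) minus the MEC mean over the 6 libraries for Phgdh (red), the other 9 genes (grey), the median of the 10 (black) and the 3 most alike genes outside the 10 (blue). The median runs from 0.50 in MEC 1 to -0.60 in MEC 3 and from 1.19 in line 199 to -0.38 in line 336, and Phgdh lies at 2.46, 2.50 and 1.56 in lines 199, 233 and 336.

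Other targets of ATF4 went in both directions. Of 25 tested, 1 was called higher (4%, beside 2.64% of all entries) and 4 were called lower (16.0%, beside 7.26%), and their median log2 fold change was -0.13. Got1, which encodes cytosolic aspartate aminotransferase, rose from 19.1, 21.4 and 12.0 FPKM in MEC to 54.0, 52.8 and 51.5 FPKM in lines 199, 233 and 336 (log2 fold change 1.58, SE 0.23, adjusted p = 0.0115, limma). Its values in the lines were nearly equal, unlike those of the serine genes. The call was lost without MEC 1 (adjusted p = 0.0561, limma).

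The 4 that fell were Atf3, Ddit4, Nupr1 and Stc2. Atf3, a stress-induced factor of the same family, was at 18.2, 21.1 and 11.7 FPKM in MEC and at 4.80, 4.06 and 2.78 FPKM in lines 199, 233 and 336 (log2 fold change -1.87, SE 0.28, adjusted p = 0.0129, limma). Ddit4 encodes REDD1, an inhibitor of mTORC1, and was at 193, 159 and 166 FPKM in MEC and at 37.8, 49.8 and 77.4 FPKM in the lines (-1.69, SE 0.27, adjusted p = 0.0158, limma). Nupr1, which encodes a small stress-induced chromatin protein, was at 206, 164 and 365 FPKM in MEC and at 68.1, 47.0 and 36.2 FPKM in the lines (-2.22, SE 0.36, adjusted p = 0.0163, limma).
Stc2, which encodes the secreted glycoprotein stanniocalcin 2, was at 21.8, 17.9 and 11.6 FPKM in MEC and at 3.07, 3.53 and 0.344 FPKM in the lines (-2.59, SE 0.51, adjusted p = 0.0280, limma). For each of the 4, all lines lay below all MEC libraries, as for 18.7% of all entries. All 4 lost their call without MEC 1 (adjusted p of 0.0714 to 0.117, limma), and the number called lower was 0 without MEC 1, 1 without MEC 2 (Nupr1), 2 without MEC 3 (Atf3 and Nupr1) and 7 without line 199. Stc2 also lost it with a pseudocount of 0.1 (adjusted p = 0.0578) and with no filter on low values (adjusted p = 0.0518). The order line 199 over line 233 over line 336 was seen for 15 of the 25.

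Upstream of ATF4, 0 of 11 genes of the eIF2alpha kinases and their regulators were called higher (beside 2.64% of all entries, limma). As many, 0 of 11, were called lower (beside 7.26%). At an unadjusted p under 0.05, 3 were higher and 0 lower (limma), beside 28.2% of all entries in either direction. The median log2 fold change of the 11 was 0.26. Of the pair with the largest changes, Impact, an inhibitor of the amino acid sensor GCN2, was at 4.67, 5.57 and 5.83 FPKM in MEC and at 11.2, 7.27 and 11.7 FPKM in lines 199, 233 and 336 (0.78, SE 0.22, adjusted p = 0.0761, limma). Gcn1l1, a coactivator of GCN2, was at 19.9, 21.1 and 19.1 FPKM in MEC and at 33.8, 36.2 and 29.5 FPKM in the lines (0.70, SE 0.14, adjusted p = 0.0326, limma), which is under the fold threshold. Eif2ak1, which encodes 1 of these kinases, was also under the fold threshold (0.67, SE 0.14, adjusted p = 0.0324, limma). Each line exceeded each MEC library for Impact, Gcn1l1 and Eif2ak1, as for 18.5% of all entries. The order of the lines seen for the 10 genes was found in 0 of these 11. In this list 1 gene was called higher after quantile normalization, without line 233 and without line 336, and 1 was called lower without line 233.

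Of the amino acid transporters, 13 of 15 were tested (Slc7a5 was not analysed here and Slc43a1 was below the filter). With limma, 0 were called higher (beside 2.64% of all entries) and 0 lower (beside 7.26%). At an unadjusted p under 0.05, 0 were higher and 1 lower (limma), beside 28.2% of all entries in either direction. The median log2 fold change of the 13 was 0.24. The largest changes were those of Slc7a3, a cationic amino acid transporter gene, at 10.4, 3.51 and 6.47 FPKM in MEC and 7.53, 0.315 and 0.263 FPKM in lines 199, 233 and 336 (-1.59, SE 0.80, adjusted p = 0.248, limma), and of Slc7a7. The latter encodes the light chain of an exchanger of cationic and neutral amino acids and was at 8.08, 7.34 and 10.9 FPKM in MEC and at 0.724, 4.39 and 2.90 FPKM in the lines (-1.55, SE 0.43, adjusted p = 0.0741, limma). Line 199 was the lowest line for Slc7a7 and the highest for Slc7a3. Without line 199 both were called lower, Slc7a3 at -2.49 (adjusted p = 0.0151) and Slc7a7 at -1.08 (adjusted p = 0.0392), and Slc7a7 was also called lower with sample weights (limma). Without line 336, 1 transporter was called higher. The order line 199 over line 233 over line 336 was seen for 8 of the 13, beside 19.6% of all entries.

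The 20 cytosolic aminoacyl-tRNA synthetases, which charge tRNAs with amino acids, gave 0 calls higher (beside 2.64% of all entries) and 0 lower (beside 7.26%) with limma. At an unadjusted p under 0.05, 4 were higher and 0 lower (limma), beside 28.2% of all entries in either direction. A log2 fold change above 0 was seen for 16 of the 20. Their median was 0.33, where that of all entries was 0.01. The largest were Eprs, at 50.7, 49.1 and 39.9 FPKM in MEC and 99.0, 65.9 and 65.5 FPKM in the lines (0.69, SE 0.21, adjusted p = 0.0933, limma), and Hars, at 37.1, 41.5 and 27.5 FPKM in MEC and 59.5, 49.4 and 48.0 FPKM in the lines (0.57, SE 0.20, adjusted p = 0.123, limma). Both had each line above each MEC library, as had 18.5% of all entries. The order of the lines seen for the 10 genes was found in 10 of these 20.

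Of 31 other enzymes of serine, glycine and folate metabolism, 26 were tested. Of these, 1 was called higher (3.85%, beside 2.64% of all entries) and 3 were called lower (11.5%, beside 7.26%). Their median log2 fold change was 0.46, with 20 above 0, and the order of the lines was that of the 10 genes in 11 of 26. Mthfd2l, a mitochondrial paralog of Mthfd2, rose from 6.21, 6.59 and 4.80 FPKM to 9.99, 11.9 and 10.0 FPKM in lines 199, 233 and 336 (0.76, SE 0.18, adjusted p = 0.0462, limma), at the edge of both thresholds. It lost the call in each fit that left out a library except that without line 199, with no filter on low values, with a mean FPKM of at least 5 and with sample weights. Mthfd1l, which encodes the mitochondrial formyltetrahydrofolate synthetase and is also a target of ATF4, was at 21.8, 21.9 and 8.14 FPKM in MEC and at 38.0, 25.3 and 15.4 FPKM in the lines (0.60, SE 0.47, adjusted p = 0.437, limma).

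Amt, which encodes the aminomethyltransferase of the glycine cleavage system, fell from 5.85, 5.96 and 6.35 FPKM to 0.323, 0.158 and 0.909 FPKM (-2.30, SE 0.25, adjusted p = 0.00453, limma). Aldh1l1, which encodes cytosolic formyltetrahydrofolate dehydrogenase, fell from 3.54, 2.46 and 4.10 FPKM to 0.0312, 0.576 and 0.102 FPKM (-1.83, SE 0.28, adjusted p = 0.0150, limma). Both had all lines below all MEC libraries, as had 18.7% of all entries. Aldh1l1 lost its call without MEC 1, MEC 2 or MEC 3 (adjusted p of 0.0552 to 0.0876, limma).

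In the parallel arm of the unfolded protein response, 22 genes were tested with limma. They were targets of XBP1 and ATF6, together with the regulator genes Xbp1, Atf6 and Ern1 themselves. Of these, 0 were called higher (beside 2.64% of all entries) and 1 was called lower (4.55%, beside 7.26%). At an unadjusted p under 0.05, 1 was higher and 3 were lower (limma), beside 28.2% of all entries in either direction. The median log2 fold change of the 22 was -0.08. The gene called lower was Xbp1, which encodes the factor of the IRE1 arm. It was at 62.1, 66.3 and 56.6 FPKM in MEC and 35.3, 39.5 and 32.5 FPKM in lines 199, 233 and 336 (-0.77, SE 0.14, adjusted p = 0.0243, limma). Its change was next to the fold threshold, with a log2 fold change of -0.74 after upper-quartile scaling, and the call was also lost without MEC 1, MEC 2, MEC 3 or line 336. Of the 22, 1 was called higher with a pseudocount of 0.1, after quantile normalization, after upper-quartile scaling and without line 199. The order of lines 199, 233 and 336 was seen for 6 of 22.

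**Figure D5:**
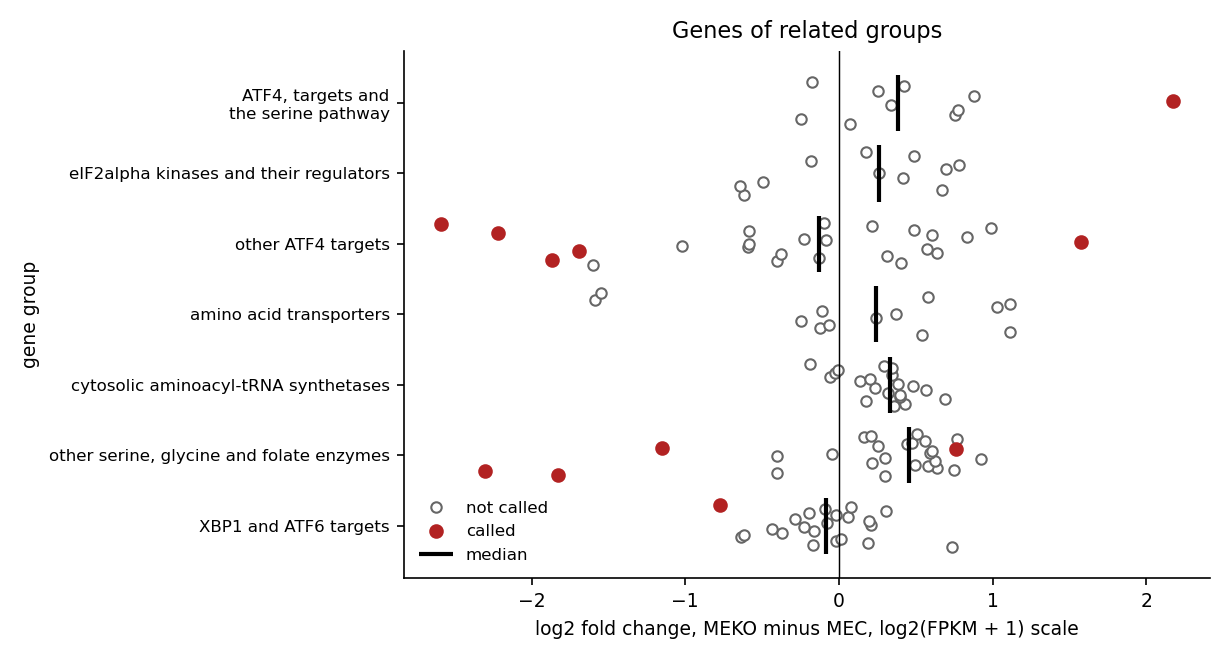
Log2 fold change (MEKO minus MEC, log2(FPKM + 1) scale) of each tested gene in the 10 genes and the 6 related lists, 1 point per gene, with filled points for called genes and a bar at the median of each list. Calls lie on both sides of 0, with 4 of the 5 called among other ATF4 targets to the left, and the medians lie between -0.13 and 0.46.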

How the data were processed

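RNA-seq of 3 MEC preparations and 3 MEKO lines was used, grouped by the sample labels. The authors used Trimmomatic to trim reads and TopHat2 2.0.14 with Bowtie2 to align them (mm10), and the deposited FPKM values, normalized for transcript length and library size, were computed with Cufflinks 2.2.1. The gene annotation release and the strand setting are not given in the sources used here. The deposited values hold no read numbers, so no counting interval or detection floor was computed. The table has 37755 entries, of which 2 hold no values. An entry joining several names was matched by any of them.

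Entries with a mean FPKM of at least 1 were tested with limma 3.58.1 (R 4.3.3) on log2(FPKM + 1), with eBayes moderation along a trend in mean level, and adjusted by the Benjamini-Hochberg method. The smallest exact permutation p is 0.1. With 1 library per preparation or line, p-values measure the spread between these. Alternatives were a pseudocount of 0.1, other filters on low values, quantile normalization, upper-quartile scaling, sample weights, a fit with no trend and fits that each omitted 1 library.

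The text names the 10 genes, the paralogs Shmt1, Mthfd1, Mthfd2l and Mthfd1l, Mapk8 and Mapk9, each called gene of a list (or the 2 with the largest change where none was called) and the 5 entries most alike. Cell type markers, Eif2ak1 and overlapping or similar genes are named beside results. The genes and lists were chosen with earlier results of these data known. Some genes stand in more than 1 list. Another called gene of these lists is counted but not reported here. Positions come from GENCODE M21 and similar transcripts from blastn 2.17.0.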

Additional observations from a re-analysis of the deposited data

How the results depend on the processing

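No paired analysis was possible because the groups share no replicate number. With 3 libraries a group and no read numbers, changes were called only where they were large beside the spread between libraries, and the 9 genes not called may still differ within the intervals given. Of the 10 genes, 1 was called higher under each alternative that kept all libraries, and 0 to 1 when a library was left out, while 0 were called lower throughout. Phgdh kept its direction in all 13 alternatives, with log2 fold changes of 1.75 to 2.52 and adjusted p (limma) of 0.0275 to 0.103. Atf4 stayed below 0 and Ddit3, Chac1 and Psat1 above 0 in the same 13, none of them called. Direction was not stable for the other 5. With sample weights, which gave line 199 a weight of 0.26 and MEC 1 one of 7.58, the log2 fold change was -0.34 for Asns, -0.29 for Psph, -0.036 for Shmt2 and -0.20 for Mthfd2, and the median of the 10 was -0.12. Leaving out a library gave -0.45 to 0.60 for Asns, -0.46 to 1.02 for Psph, -0.0098 to 0.82 for Shmt2, -0.11 to 0.71 for Mthfd2 and -0.69 to 0.46 for Trib3.

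Over all entries, 329 were called higher and 905 lower. Leaving out a library gave 48 to 568 higher and 211 to 1398 lower, a mean FPKM of at least 5 gave 501 lower, and sample weights gave 565 higher. Higher entries made up 26.7% of the calls, and 37.9% after quantile normalization, which moved the median log2 fold change of all entries to 0.10 from 0.01. The 6 related lists held 11, 25, 13, 20, 26 and 22 tested genes, some of them in more than 1 list. Of these lists together, 2 entries were called higher and 8 lower, where 2.64% and 7.26% of all entries were called. The number higher was 1 with no filter on low values, 1 at a mean FPKM of at least 5, 5 after quantile normalization, 1 with sample weights and 0 to 4 when a library was left out. The number lower was 5 at a mean FPKM of at least 5, where fewer genes are tested, and 1 to 13 when a library was left out. The cause of the other shifts was not tested. For the differences within a library between mitochondrial and cytosolic enzymes, MEKO minus MEC was -0.14 for Shmt2 minus Shmt1 and -0.26 for Mthfd2 minus Mthfd1. Leaving out a library gave -0.65 to 0.31 for the first, so its sign was not stable, and -0.64 to -0.0058 for the second. These shifts were smaller than the spread between libraries.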
